A study of Mus musculus with 6 samples.

Results

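The 10 genes described here encode the constant parts of the αβ T cell receptor, its signalling chains and its coreceptors: the constant regions Trac, Trbc1 and Trbc2, the CD3 chains Cd3d, Cd3e and Cd3g, the coreceptors Cd4, Cd8a and Cd8b1, and the receptor regulator Cd5. They were chosen by gene symbol and are 10 of the 57180 genes in the count table. An αβ T cell recombines V, D and J gene segments, splices them to a constant region, and displays the resulting alpha and beta chains on the cell surface only together with the CD3 chains and the zeta chain Cd247. CD4 and CD8 bind MHC molecules and bring the kinase Lck to the receptor, which then phosphorylates the CD3 and zeta tails. NK cells recombine no antigen receptor and in the liver are told from T cells by the absence of surface CD3, although transcripts of unrearranged T cell receptor loci have been described in them, and they use the zeta chain under their own activating receptors.

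RNA was sequenced from NK cells that were sorted by CD36, a fatty acid receptor, from fibrotic livers, to ask how cells with and without CD36 differ. All mice were male C57BL/6J of 6 to 8 weeks without a genetic change, and all had received CCl4, a toxin that scars the liver. A 20% solution in olive oil was injected at 2.5 ml/kg, 2 times per week for 4 weeks, and livers were taken 48 h after the last dose. There were 3 CD36+ NK and 3 CD36- NK libraries from 400 ng of RNA each, and no library from a liver without CCl4 was analysed here. The labels name separate biological samples but not how many animals each pooled, so p-values measure the spread between these samples. In its flow cytometry the study defined NK cells as CD3- NK1.1+.

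Libraries held 10292480 to 13787189 counts, and 3 counts corresponded to 0.221 to 0.293 CPM, the unit used below for counts scaled to library size by TMM. Cd36 was at 109.7, 263 and 238 CPM in CD36+ NK 1, 2 and 3 and at 14.3, 31.7 and 17.1 CPM in CD36- NK 1, 2 and 3, in the order of the sample titles. The NK cell label was checked with 10 NK markers, of which all were present in every library and 9 were called lower in CD36+ NK, where their summed level was 899 to 1060 CPM against 4378 to 5461 CPM in CD36- NK. Macrophage and Kupffer cell markers summed to 2251 to 5584 CPM in CD36+ NK and 364 to 1366 CPM in CD36- NK, with 3 of 8 tested called higher. The 8 B cell markers, among them the highly expressed Cd79a and Ms4a1, summed to 4719 to 5297 CPM and 3284 to 3746 CPM, with log2 fold changes of 0.16 to 0.68. Their part in the results below was not tested. In bulk libraries of this kind, fewer cells of a type and less RNA per cell cannot be told apart.

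The 10 genes did not move as 1 group. With edgeR's quasi-likelihood test over 14761 genes and Benjamini-Hochberg adjustment, Cd4 and Cd8a were called higher in CD36+ NK (adjusted p below 0.05 and more than 2-fold), Trbc1 was called lower, and the other 7 were not called. Of all tested genes, 5.96% were called, 2.98% in each direction. The median log2 fold change of the 10 genes was 2.28, beside 0.01 for all tested genes. That median rested on 1 library. CD36+ NK 1 had the highest level of 9 of the 10 genes, the exception being Trbc1, and the 10 genes together reached 432 CPM there, against 59.7 and 66.6 CPM in CD36+ NK 2 and 3 and 147 to 188 CPM in CD36- NK. When CD36+ NK 1 was left out, the median was -1.54. Cd3d, Cd3g, Trbc1 and Trbc2 were called lower, and Cd4 and Cd8a were still called higher, beside 7.38% of the 15208 genes then tested. Cd3e was also called lower, but from 2 and 1 counts in CD36+ NK 2 and 3. It passed the low-count filter only through CD36- NK, so its call is not taken as support. Leaving out another library gave fewer calls among the 10 genes: 2 without CD36+ NK 2, 1 without CD36+ NK 3 or CD36- NK 2, and 0 without CD36- NK 1 or CD36- NK 3, where 3 had an unadjusted p below 0.05. Over all tested genes the share called was 2.81% and 3.02% without CD36+ NK 2 and 3, and 2.8%, 7.59% and 2.82% without CD36- NK 1, 2 and 3. The levels of the groups did not overlap for 3 of the 10 genes with all libraries, where 32.8% of tested genes did not overlap, and for 8 of the 10 without CD36+ NK 1, where the share was 45.6%. Of these 8, Cd4 and Cd8a were higher in CD36+ NK, beside 23.2% of tested genes, and 6, Cd3e among them, were lower, beside 22.4%.

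**Figure D1:**
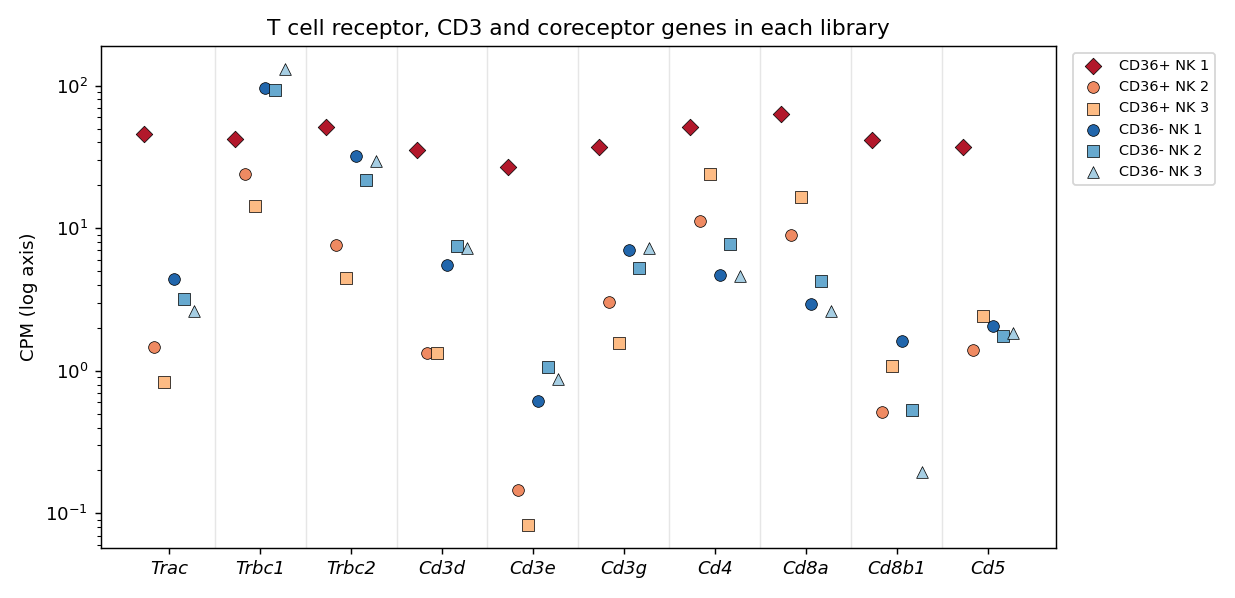
Level of each of the 10 genes in each library, in CPM on a log axis, with 1 point per library, CD36+ NK in red to orange and CD36- NK in blue. CD36+ NK 1 (dark red diamonds) lies above every other library for 9 genes, and for Trbc1 it lies between the other CD36+ NK and the CD36- NK libraries.

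The constant regions come first. The table places Trac (ENSMUSG00000076928) on chromosome 14 at 54457978 to 54461663, and Trbc1 (ENSMUSG00000076490) and Trbc2 (ENSMUSG00000076498) on chromosome 6 at 41515152 to 41516815 and 41523664 to 41525286, all on the plus strand. The build of the table's coordinates is not given in the sources used here and was not GRCm38. Trbc1 and Trbc2 are neighbouring copies of the beta constant region, and the last 250 bases of their first exons are shown because reads from one can be assigned to the other. In GRCm38 (GENCODE annotation, plus strand) these stretches lie at chr6:41538343-41538592 for Trbc1 and chr6:41546855-41547104 for Trbc2, and the capital marks the only base at which the exons, each of 375 bases, differ.
Trbc1: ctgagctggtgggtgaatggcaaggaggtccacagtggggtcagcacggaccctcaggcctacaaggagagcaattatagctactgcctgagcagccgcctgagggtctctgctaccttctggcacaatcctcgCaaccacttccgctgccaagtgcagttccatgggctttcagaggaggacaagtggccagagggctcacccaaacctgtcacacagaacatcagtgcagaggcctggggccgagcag
Trbc2: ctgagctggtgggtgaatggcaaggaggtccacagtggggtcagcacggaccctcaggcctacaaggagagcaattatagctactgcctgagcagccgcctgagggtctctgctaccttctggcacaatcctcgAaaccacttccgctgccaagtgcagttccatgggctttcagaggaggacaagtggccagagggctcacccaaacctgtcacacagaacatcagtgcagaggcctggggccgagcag
The whole exons were identical at 99.73% of positions with an unbroken identical run of 259 bases, so the division of counts between Trbc1 and Trbc2 is uncertain where fragments fall within this exon.

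Trbc1 was at 42, 24.1 and 14.4 CPM in CD36+ NK 1, 2 and 3 and at 96.8, 93.7 and 131 CPM in CD36- NK 1, 2 and 3. All CD36+ NK libraries were below all CD36- NK libraries, and this was the 1 gene of the 10 called lower (log2 fold change -2.0, SE 0.363, adjusted p = 0.0182). The direction was the same in every alternative, while the call was lost without CD36+ NK 2 (adjusted p = 0.0789), CD36- NK 1 (0.0598) or CD36- NK 3 (0.0680) and with the replicate block (0.0527). Trbc2 was at 51.5, 7.58 and 4.49 CPM in CD36+ NK and 32.2, 21.8 and 29.6 CPM in CD36- NK. Here CD36+ NK 1 was the highest library of all and the other CD36+ NK libraries were the lowest, and the groups did not differ by the test (log2 fold change -0.40, SE 0.809, adjusted p = 0.807). Without CD36+ NK 1 the log2 fold change of Trbc2 was -2.21 (SE 0.289, adjusted p = 0.00813). The sum of Trbc1 and Trbc2, which does not depend on how fragments were divided between them, was 93.5, 31.6 and 18.9 CPM in CD36+ NK and 129, 116 and 161 CPM in CD36- NK. On this sum every CD36+ NK library was again below every CD36- NK library.

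Trac, the only alpha constant region, was at 45.8, 1.47 and 0.831 CPM in CD36+ NK and at 4.38, 3.18 and 2.64 CPM in CD36- NK. Its level in CD36+ NK 1 was 10.5 times the highest of the other libraries, and the remaining CD36+ NK libraries were below all CD36- NK libraries. The log2 fold change was 2.22 with all libraries (SE 1.34, adjusted p = 0.355) and -1.56 without CD36+ NK 1 (SE 0.400, adjusted p = 0.0557), so neither passed the test and the direction depended on that library. The ratio of Trac to Trbc1 counts was 1.09 in CD36+ NK 1 and 0.0201 to 0.0612 in the other 5 libraries. The ratio of Trbc2 to Trbc1 was 1.23 in CD36+ NK 1 and 0.225 to 0.333 in the others. Outside CD36+ NK 1, Trbc1 had far more counts than Trac in both groups.

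The CD3 chains pair with each other and carry the receptor's signalling motifs. The table places Cd3g (ENSMUSG00000002033, minus strand, 44880870 to 44891729), Cd3d (ENSMUSG00000032094, plus strand, 44893084 to 44898637) and Cd3e (ENSMUSG00000032093, minus strand, 44910038 to 44920925) side by side on chromosome 9. Cd3g and Cd3d are read in opposite directions from starts 1355 bases apart, and the 3 genes differed between libraries in a like way, so the 250 bases before each start are shown. They are from RefSeq on GRCm38.p6, at chr9:44981536-44981785 (plus strand) for Cd3d, chr9:45009612-45009861 (minus strand) for Cd3e and chr9:44980432-44980681 (minus strand) for Cd3g, each written 5′ to 3′ on the strand of its gene.
Cd3d: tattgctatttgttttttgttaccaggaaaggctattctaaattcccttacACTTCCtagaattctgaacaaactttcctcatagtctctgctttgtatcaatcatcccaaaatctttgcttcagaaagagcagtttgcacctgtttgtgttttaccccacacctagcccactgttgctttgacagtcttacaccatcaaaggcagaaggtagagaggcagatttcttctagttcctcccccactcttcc
Cd3e: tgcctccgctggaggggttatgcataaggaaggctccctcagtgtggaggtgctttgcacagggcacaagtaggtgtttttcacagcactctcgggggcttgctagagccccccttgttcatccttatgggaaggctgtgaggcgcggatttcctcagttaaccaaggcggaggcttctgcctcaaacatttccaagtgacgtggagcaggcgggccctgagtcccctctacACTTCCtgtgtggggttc
Cd3g: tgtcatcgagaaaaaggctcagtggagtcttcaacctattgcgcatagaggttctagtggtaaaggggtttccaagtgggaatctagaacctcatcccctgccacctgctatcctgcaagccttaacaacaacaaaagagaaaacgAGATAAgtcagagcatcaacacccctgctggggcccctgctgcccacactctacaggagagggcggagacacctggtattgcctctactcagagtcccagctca
Capitals mark matches, on either strand, to the short promoter motifs named below. The ETS motif GGAAGT occurred 1 time each before Cd3d and Cd3e, written there as its reverse complement, and the GATA motif AGATAA 1 time before Cd3g. The E box CAGCTG, the RUNX motif TGTGGT and the TATA box TATAAA had no match in the 3 windows. Of 32851 windows of the same length, 19.7% held the ETS motif, 10% the GATA motif, 13% the E box, 14% the RUNX motif and 12.4% the TATA box. No searched motif overlapped another in these windows, and a match describes the letters only. Promoter entries matched 5 of the 10 genes.

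Cd3e was at 27.0, 0.147 and 0.0831 CPM in CD36+ NK and at 0.615, 1.06 and 0.879 CPM in CD36- NK, from 303, 2 and 1 counts and 8, 12 and 9 counts. It stood out in CD36+ NK 1, where its level was 25.4 times the highest other library, and it was below the 3-count floor in the other CD36+ NK libraries. The log2 fold change was 3.40 with all libraries (SE 1.77, adjusted p = 0.281). Without CD36+ NK 1 it was -2.76 (SE 0.624, adjusted p = 0.0394), from 3 counts in all against 29, a ratio of 0.140 with an exact 95% interval of 0.0272 to 0.450 that covers counting error only. In that fit Cd3e passed the low-count filter only through CD36- NK, so its call is not taken as support for a difference. Cd3d was at 35.3, 1.32 and 1.33 CPM in CD36+ NK and at 5.53, 7.52 and 7.32 CPM in CD36- NK. Cd3g was at 36.8, 3.02 and 1.58 CPM in CD36+ NK and at 7.07, 5.31 and 7.32 CPM in CD36- NK. For both genes CD36+ NK 1 was highest and the other CD36+ NK libraries were below all CD36- NK libraries. Neither was called with all libraries (Cd3d log2 fold change 0.89, SE 1.15, adjusted p = 0.688, and Cd3g 1.06, SE 1.04, adjusted p = 0.582). Without CD36+ NK 1 both were called lower (Cd3d -2.36, SE 0.278, adjusted p = 0.00638, and Cd3g -1.51, SE 0.345, adjusted p = 0.0405). The chains were not present in 1 proportion. Cd3e was counted 0.763 times as often as Cd3d in CD36+ NK 1 and 0.0625 to 0.141 times as often in the other 5 libraries, whereas the ratio of Cd3g to Cd3d was 1.04 in CD36+ NK 1 and 0.706 to 2.28 elsewhere. Cd3d and Cd3g were detected in every library, while Cd3e stood well above the floor in CD36+ NK 1 alone among the CD36+ NK libraries.

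Of the coreceptors, Cd4 and Cd8a were called higher and Cd8b1 was not called. Cd4 (ENSMUSG00000023274), which binds MHC class II, lies on chromosome 6 at 124841655 to 124865184 on the minus strand. It was at 51.4, 11.3 and 23.9 CPM in CD36+ NK and at 4.69, 7.78 and 4.59 CPM in CD36- NK. Every CD36+ NK library was above every CD36- NK library, CD36+ NK 1 by the most, and Cd4 was called higher (log2 fold change 2.34, SE 0.548, adjusted p = 0.0396). Without CD36+ NK 1 it was also called higher (1.61, SE 0.380, adjusted p = 0.0444). Among fits that left out 1 library, the call was lost without CD36+ NK 3 (adjusted p = 0.0930), CD36- NK 1 (0.135), CD36- NK 2 (0.0533) or CD36- NK 3 (0.145), with log2 fold changes between 2.20 and 2.64. It was also lost without a filter on low counts (0.0515) and in both block fits (0.101 by replicate number, 0.0530 by library name form).

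Cd8a (ENSMUSG00000053977) and Cd8b1 (ENSMUSG00000053044) encode the alpha and beta chains of CD8, which binds MHC class I, and lie near each other on chromosome 6 at 71350411 to 71356157 and 71299772 to 71314478 on the plus strand. Conventional CD8 T cells carry both chains as a pair, and the alpha chain also occurs without the beta chain, for example on a subset of dendritic cells. Cd8a was at 63.2, 8.98 and 16.5 CPM in CD36+ NK and at 2.92, 4.24 and 2.64 CPM in CD36- NK. The groups did not overlap, and Cd8a was called higher with all libraries (log2 fold change 3.17, SE 0.744, adjusted p = 0.0396) and without CD36+ NK 1 (1.95, SE 0.338, adjusted p = 0.0190). Its call was lost without CD36+ NK 3 (adjusted p = 0.0710), CD36- NK 1 (0.134), CD36- NK 2 (0.0713) or CD36- NK 3 (0.145), with log2 fold changes between 3.05 and 3.46, and also without a filter on low counts (0.0510) and with the replicate block (0.0821). Cd8b1 was at 41.6, 0.515 and 1.08 CPM in CD36+ NK and at 1.61, 0.531 and 0.195 CPM in CD36- NK. Outside CD36+ NK 1 the groups overlapped, with 2 to 21 counts per library. The log2 fold change of Cd8b1 was 4.12 with all libraries (SE 1.69, adjusted p = 0.176) and -0.05 without CD36+ NK 1 (SE 0.809, adjusted p = 0.982). The ratio of Cd8b1 to Cd8a counts was 0.658 in CD36+ NK 1 and 0.0574 and 0.0653 in CD36+ NK 2 and 3. In CD36- NK it was 0.553, 0.125 and 0.0741, the first of these from 21 and 38 counts. CD36+ NK 2 and 3 held Cd8a with little Cd8b1.

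Some dendritic cells and macrophages also carry Cd4 or Cd8a, so their markers are given beside these genes. Among 7 conventional dendritic cell markers, Xcr1 (9.88, 7.28 and 11.4 CPM against 1.69, 2.48 and 0.977 CPM) and Clec9a (15.7, 14.7 and 18.5 CPM against 3.0, 6.72 and 2.25 CPM), both of the cross-presenting subset, were called higher in CD36+ NK, 4 were not called, and Itgax (CD11c, 197 to 255 CPM against 415 to 611 CPM), which NK cells also express, was called lower. Their list summed to 295 to 360 CPM in CD36+ NK and 472 to 656 CPM in CD36- NK. Itgax made up the larger part of the sum in every library, so these sums mainly follow Itgax. Of the macrophage list, Adgre1 (F4/80, log2 fold change 2.33, adjusted p = 0.0386), Csf1r (the CSF1 receptor, 1.89, adjusted p = 0.0378) and Marco (a scavenger receptor, 3.50, adjusted p = 0.0254) were called higher. Among CD36+ NK libraries, replicate 1 was highest for Cd4 and Cd8a and lowest for Adgre1 (225 CPM, against 348 and 581), Csf1r (1138 CPM, against 1726 and 2342) and Marco (14.4 CPM, against 31.6 and 47.5). It was lowest of the CD36+ NK libraries for 8 of the 10 macrophage markers. In the other 5 libraries Cd4 and Cd8a had the same order. From high to low it was CD36+ NK 3, CD36+ NK 2, CD36- NK 2, CD36- NK 1 and CD36- NK 3. Of the 10 macrophage markers 4 shared it and 6 did not. Among the 6, Marco, C1qa, C1qb and C1qc differed from it only in the order of CD36- NK 1 and 3, where Cd4 was at 4.69 and 4.59 CPM. The count was made, and C1qc named, after the values were seen. The complement genes C1qa and C1qb, also highly expressed, had log2 fold changes of 2.91 and 2.87 (adjusted p = 0.0576 and 0.0527). The Kupffer cell marker Clec4f, named after its values were seen, was at 1.51, 45.9 and 0 CPM in CD36+ NK and had no count in CD36- NK. The 6 plasmacytoid dendritic cell markers, led by Irf8, Tcf4 and Bst2, summed to 425 to 698 CPM in CD36+ NK and 472 to 730 CPM in CD36- NK, with log2 fold changes of -0.42 to 1.14 that missed the threshold. Whether these cell types carried the Cd4 and Cd8a transcripts was not tested.

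Cd5 (ENSMUSG00000024669, chromosome 19, minus strand, 10694480 to 10716366) dampens receptor signalling in T cells and also marks a subset of B cells. It was at 36.9, 1.40 and 2.41 CPM in CD36+ NK and at 2.08, 1.77 and 1.86 CPM in CD36- NK. Apart from CD36+ NK 1, which was 15.3 times the next library, the levels lay within 1.40 to 2.41 CPM and the groups overlapped. The log2 fold change of Cd5 was 2.82 with all libraries (SE 1.20, adjusted p = 0.192) and -0.02 without CD36+ NK 1 (SE 0.350, adjusted p = 0.983).

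**Figure D2:**
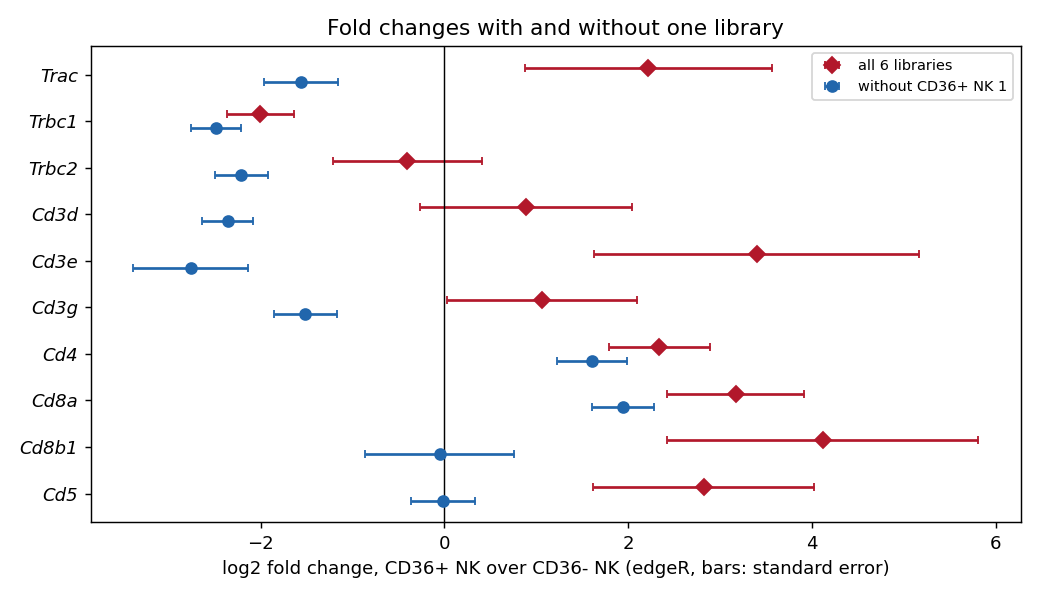
Log2 fold change of each of the 10 genes, CD36+ NK over CD36- NK, with all 6 libraries (red diamonds) and without CD36+ NK 1 (blue circles). Bars are the standard error from edgeR. Trac, Cd3d, Cd3e and Cd3g lie on opposite sides of 0 in the 2 fits, Trbc1 lies below 0 and Cd4 and Cd8a lie above 0 in both, and Cd8b1 and Cd5 lie near 0 without that library.

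Per gene length, on the FPKM scale that the authors deposited, the order of the 10 genes differed between CD36+ NK 1 and the rest. In CD36- NK, Trbc1 was highest at 131 to 177 FPKM, followed by Trbc2 at 32.5 to 47.0 FPKM. Trac at 2.52 to 4.25 FPKM, Cd3d at 2.59 to 3.59 FPKM and Cd3g at 1.53 to 2.04 FPKM came next, of which Trac and Cd3d overlapped. Cd4 at 0.921 to 1.62 FPKM overlapped Cd3g above it and Cd8b1, at 0.131 to 1.10 FPKM, below it. Cd8a at 0.341 to 0.568 FPKM, Cd5 at 0.305 to 0.351 FPKM and Cd3e at 0.139 to 0.244 FPKM all lay within the range of Cd8b1, and Cd3e was below Cd8a and Cd5. In CD36+ NK 2 and 3, Trbc1 was also highest at 32.2 and 18.7 FPKM and Cd3e lowest at 0.0323 and 0.0177 FPKM. In CD36+ NK 1, Trbc2 at 75.3 FPKM, Trbc1 at 57.7 FPKM, Trac at 44.5 FPKM and Cd8b1 at 28.4 FPKM were the 4 highest.

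V, D and J segments are counted as rows of their own in the table, and they show which receptor transcripts the constant regions belonged to only in part, since related segments share sequence and their counts are uncertain. The 130 alpha V segments (Trav) held 216 counts in CD36+ NK 1, spread over 54 segments, 0 counts in CD36+ NK 2 and 3, which allows up to 0.221 and 0.249 CPM, and 6, 7 and 11 counts in CD36- NK. The 35 beta V segments (Trbv) held 492 counts over 20 segments in CD36+ NK 1, 4 counts in each of the other CD36+ NK libraries, and 20, 5 and 15 counts in CD36- NK. In these V segments, CD36+ NK 1 was far above the other 5 libraries, with counts from many segments and not from 1. The segments of the invariant receptor of NKT cells, a T cell type that also carries NK1.1, were also looked up. Trav11 and its copies Trav11d and Trav11n had 0 counts in every library. Traj18 had 1 count, in CD36+ NK 1, as did 21 of the 60 Traj segments there including Traj18, so its level cannot be ranked at this depth. These were named after their values were seen.

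In 5 of the other 8 classes the groups did not overlap, with every CD36+ NK library lower. Among single tested genes 15.7% did not overlap in this direction and 32.8% in either direction. Of the 5 classes, beta D (Trbd), delta J (Trdj) and gamma J segments (Trgj) held at most 13 counts in a library. The 14 beta J segments (Trbj) summed to 8.72, 7.43 and 4.24 CPM in CD36+ NK and 23.4, 27.5 and 39.2 CPM in CD36- NK, and the delta V segments (Trdv) to 4.45, 3.53 and 2.66 CPM and 21.5, 19.6 and 21.6 CPM. For both classes every CD36+ NK library, CD36+ NK 1 included, was below every CD36- NK library. The alpha J segments (Traj, 2.14, 0 and 0.249 CPM against 0.538, 0.265 and 0.488 CPM) and gamma V segments (Trgv, 1.78, 0.589 and 0.166 CPM against 1.15, 1.59 and 1.56 CPM) overlapped, with CD36+ NK 1 the highest library in both. The delta D segments (Trdd), with at most 1 count in a library, overlapped too. The segments of highest count over a group's libraries were Trdv4 in both groups (89 counts in CD36+ NK and 515 in CD36- NK), Trbj1-1 (57 and 256 counts), Trdv2-2 in CD36- NK (182 counts, against 35) and Trbv3 in CD36+ NK (62 counts, of which 61 were in CD36+ NK 1, against 3). Over all 262 segments the mean log2(CPM + 0.5) was lower in CD36+ NK by a difference of -1.43 (exact permutation test, two-sided, p = 0.4, where 0.1 is the smallest p that 3 against 3 libraries allow). The sum mixes alpha and beta V segments, highest in CD36+ NK 1, with classes that were lower in every CD36+ NK library. For alpha and beta V segments only, a split made after the values were seen, the difference was 0.61 and -1.49 without CD36+ NK 1. For delta V with beta D and J segments it was -2.28, a description with no test. These were grouped because they did not overlap, but delta J and gamma J segments, which did not overlap either, were not included.

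**Figure D3:**
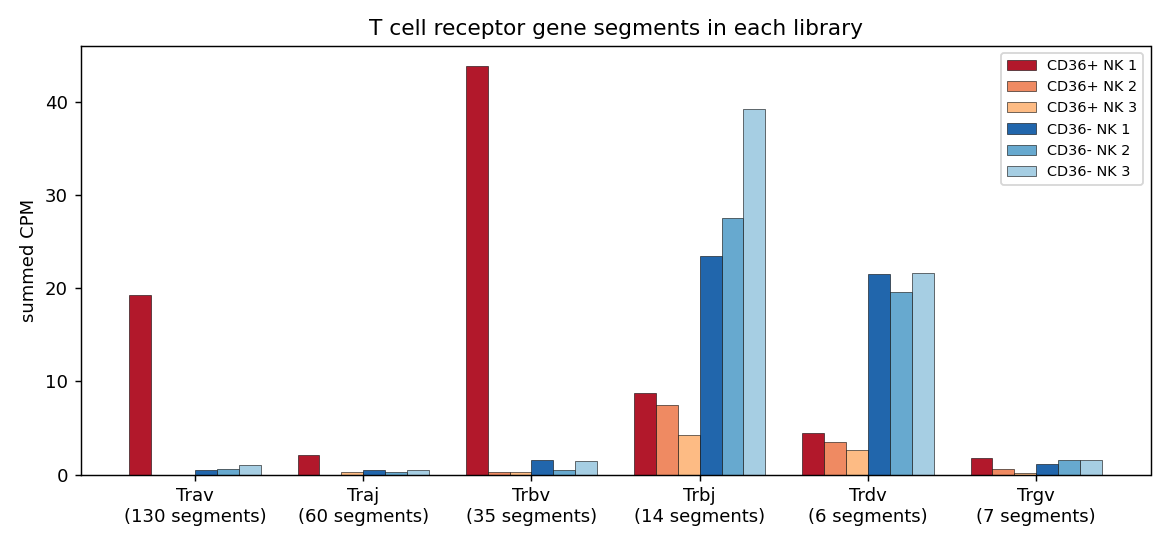
Summed level of T cell receptor gene segments by class in each library, in CPM, with 1 bar per library. CD36+ NK 1 holds nearly all Trav (19.2 CPM) and Trbv (43.8 CPM) signal, and all CD36- NK libraries exceed all CD36+ NK libraries for Trbj and Trdv.

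The genes around the receptor were followed in 4 lists with 49 genes, of which 42 were tested. By edgeR 0 of these were called higher and 11 lower in CD36+ NK, beside 2.98% of all tested genes in each direction, and their median log2 fold change was -0.70. DESeq2 also called 0 higher, and 2 were higher at an unadjusted p below 0.05. Without CD36+ NK 1, edgeR called 21 lower and 0 higher (3 at an unadjusted p below 0.05), beside 3.64% and 3.73% of all tested genes. The number called lower was 5 without CD36+ NK 2, CD36- NK 1 or CD36- NK 3, where 2%, 2.17% and 1.88% of all tested genes were called lower. CD36+ NK 1 was the highest library for 17 of the 49 genes. Most of these genes are also used by NK cells.

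Of 19 tested genes of proximal signalling, 6 were called lower. Cd247, the zeta chain, was at 40.0, 16.8 and 16.3 CPM in CD36+ NK and 97.5, 91.5 and 116 CPM in CD36- NK (log2 fold change -2.06, SE 0.350, adjusted p = 0.0144). The kinase Lck, which CD4 and CD8 bring to the receptor, was at 189, 94.9 and 84.7 CPM and 443, 364 and 463 CPM (-1.78, SE 0.307, adjusted p = 0.0150). CD36+ NK 1 lay between the other CD36+ NK libraries and the CD36- NK libraries for both. Zap70, the kinase that binds the phosphorylated chains, had a log2 fold change of -1.79, the Src family kinase Fyn -1.24, the protein kinase Prkcq -2.04 and the adaptor Skap1 -1.90, with adjusted p between 0.00631 and 0.0212. The phosphatase Ptprc (CD45) and the inhibitory kinase Csk, which with Fyn were the most expressed of the list, had log2 fold changes of -0.34 and 0.06 and were not called. The adaptor Lat resembled Trbc2, at 45.5, 6.03 and 6.48 CPM in CD36+ NK and 30.5, 26.3 and 33.4 CPM in CD36- NK, and was not called with all libraries (-0.65, adjusted p = 0.644) but was called lower when CD36+ NK 1 was left out (log2 fold change -2.28, adjusted p = 0.00193). Lat was named after its values were seen.

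Of 10 tested surface receptor genes, the costimulatory receptors Cd27 (log2 fold change -1.63, adjusted p = 0.0433) and Cd226 (DNAM-1, -1.57, adjusted p = 0.0149) were called lower. The highly expressed Cd2 (an adhesion receptor, -0.71) and Ccr7 (a lymph node homing receptor, 0.50) did not reach a 2-fold difference. Of 10 tested transcription factor genes, Gata3 (-2.27, adjusted p = 0.00643) and Tox (-1.81, adjusted p = 0.0116) were called lower, and the highly expressed Ets1 (-0.52), Satb1 (-0.97) and Zbtb7b (0.10) were not called. The delta constant region Trdc was at 12.4, 7.80 and 7.15 CPM in CD36+ NK and 41.5, 45.1 and 51.9 CPM in CD36- NK and was called lower (-2.34, SE 0.224, adjusted p = 0.00201), with a separation of the groups like that of the Trdv segments. The gamma constant regions Trgc4 (-0.84, adjusted p = 0.155) and Trgc1 (0.00, adjusted p = 0.998) were not called.

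**Figure D4:**
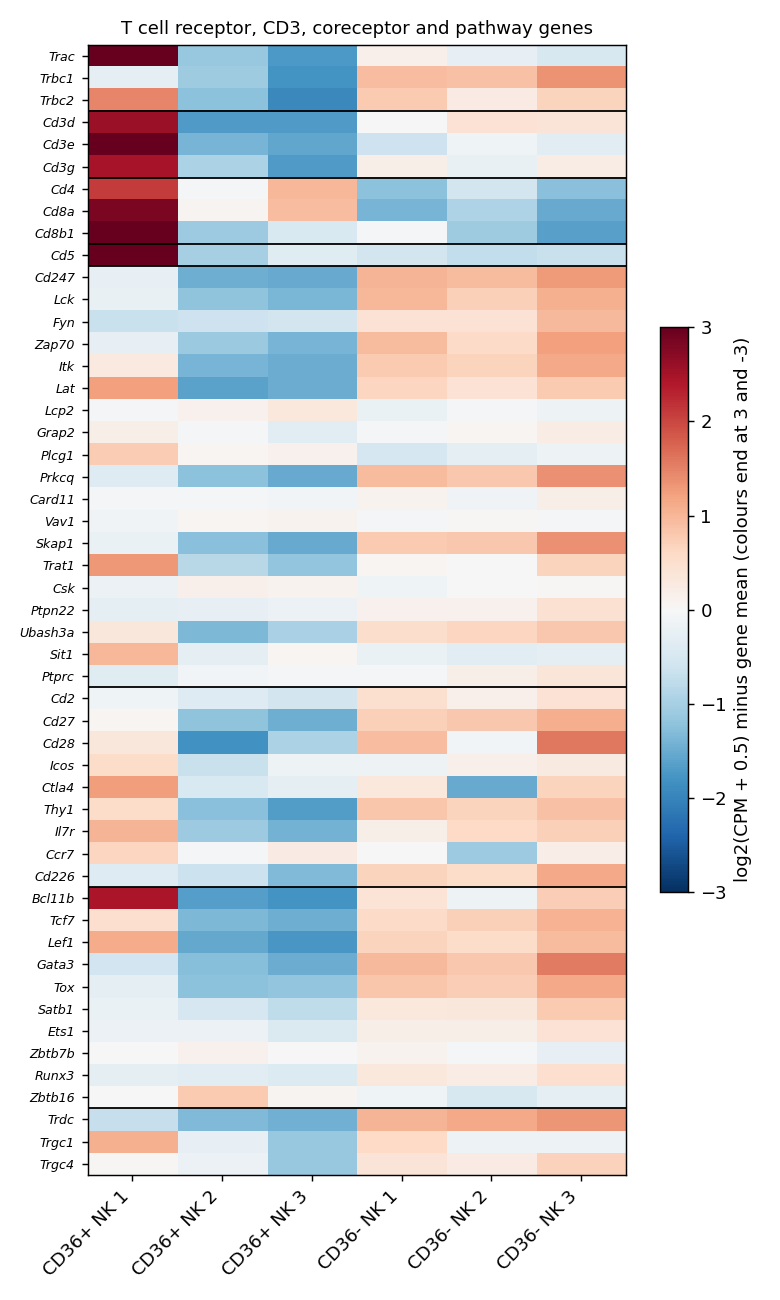
Level of the 10 genes and of 41 of the tested pathway genes in each library, as log2(CPM + 0.5) minus the gene's mean over the 6 libraries, with colours ending at 3 and -3. Lines separate constant regions, CD3 chains, coreceptors, Cd5, signalling, surface receptor, transcription factor and gamma and delta constant region genes. The dark red cells of CD36+ NK 1 are mostly among the 10 genes, while Cd247, Lck, Zap70, Gata3 and Trdc are higher in all CD36- NK libraries.

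Of the 7 listed genes with too few counts to be tested, 4 that are known mainly from T cells were nearly limited to CD36+ NK 1, and they were named after their values were seen. Themis, an adaptor of T cell development, had 177 counts there and 0 to 8 in the other libraries. Cd6, a receptor related to Cd5, had 363 counts against 1 to 9. Cd40lg (CD40 ligand) had 37 counts against 0 or 1, and Foxp3, the regulator of regulatory T cells, had 32 against 0 to 3. Among the others, also named after their values were seen, Trgc2 had 27 counts against 2 to 9, and Trgc3 had 0 in every library. Whether T cells among the sorted cells of CD36+ NK 1 carried the transcripts described here was not tested.

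The genes were also set against Ncr1 (NKp46), which marks NK cells and was called lower with a log2 fold change of -2.43. Klrb1c, which encodes NK1.1, a marker in the study's flow cytometry definition of NK cells, had a log2 fold change of -2.46. The ratio of Trbc1 to Ncr1 counts was 0.246 and 0.214 in CD36+ NK 2 and 3 and 0.246, 0.224 and 0.289 in CD36- NK, and 0.602 in CD36+ NK 1. The ratio of Cd3d to Ncr1 was 0.0136 to 0.0198 in those 5 libraries and 0.506 in CD36+ NK 1, and that of Trbc2 to Ncr1 was 0.0521 to 0.0818 and 0.738. For Trdc the ratio was 0.0799 to 0.114 and 0.177, and for Cd247 0.172 to 0.254 and 0.573. In these 5 ratios the groups overlapped once CD36+ NK 1 was set aside. They did not overlap for Cd3g, at 0.0309 and 0.0235 in CD36+ NK 2 and 3 and 0.0127 to 0.0180 in CD36- NK, or for Trac, at 0.0151 and 0.0124 against 0.00579 to 0.0111, both higher in CD36+ NK. Without CD36+ NK 1, the CPM levels of 45.6% of tested genes did not overlap, 23.2% being higher in CD36+ NK. The share for ratios to Ncr1 was not computed. For Cd3e, with 2 and 1 counts in CD36+ NK 2 and 3, the ratio was under the floor there and is not compared. The other called NK markers were the transcription factors Eomes (log2 fold change -2.58) and Tbx21 (-2.28), the receptors Klre1 (-2.5), Klrk1 (-2.21) and Itga2 (-2.59), and the granule genes Gzma (-2.57) and Prf1 (-2.51), while Trbc1 was at -2.0, Cd247 at -2.06 and Trdc at -2.34 on the same scale.

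Outside the 10 genes, the 5 tested genes whose profile over the 6 libraries was nearest to the mean CD3 profile, by root mean square difference of centred log2(CPM + 0.5), were Nsg2 (0.24), Bcl11b (0.44), Igfbp4 (0.45), Mpo (0.56) and Elane (0.56). Bcl11b, a transcription factor of T cell commitment, was at 27.9, 1.18 and 0.998 CPM in CD36+ NK and 6.46, 4.24 and 8.20 CPM in CD36- NK. Mpo and Elane encode neutrophil granule proteins, and Mpo reached 52.1 CPM in CD36+ NK 1 against 3.33 to 16.7 CPM elsewhere. Which cells carried these transcripts was not tested. On the same measure Cd3d, Cd3g, Trac and Cd3e lay at 0.31, 0.33, 0.34 and 0.48, Cd5, Trbc2 and Cd8b1 at 0.73, 0.79 and 1.10, and Cd4, Cd8a and Trbc1 at 1.47, 1.52 and 1.55.

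In CD36+ NK 1, 11 of 14761 tested genes were at least 5 times the highest of the other libraries, and 5 of these were Trac, Cd8b1, Cd5, Cd3g and Cd3e. The other 6, named after their values were seen, were Cxcr2, Als2cl, Igfbp4, Nsg2, Il1f9 and Nlrp12, among which Cxcr2 is a chemokine receptor of neutrophils. Each of the remaining libraries had 0 to 2 such genes among those tested and none of the 10. The low-count filter had left out some genes with few counts outside 1 library, and these are not in the counts given here. In CD36+ NK 1, the untested Cd6, Cd40lg, Themis and Foxp3 were 46.7, 42.8, 25.6 and 12.3 times the highest other library. The untested Clec4f was at 45.9 CPM in CD36+ NK 2 and at most 1.51 CPM elsewhere.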

How the data were processed

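The transcriptomes of 3 samples of each cell group were sequenced by Illumina. After filtering with Seqtk and mapping with HISAT2 2.0.4, StringTie was used for quantification, and the authors deposited its fragment counts unnormalized. The FPKM values the authors deposited beside them, scaled by gene length and library total, served here only to compare levels between genes. Strand use in counting was not given in the sources used here. The submitters' notes name a rat build, whereas the table holds mouse genes, so the table's coordinates are given as they stand. Columns were matched to samples by library name. The library names write CD36 with hyphens where the titles write a plus sign, and the titles were followed. The lines of 2 genes were broken and were rejoined. The table's columns of annotation terms were not used.

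Groups follow the sample titles. Counts were tested with edgeR 4.0.16 in R 4.3.3 (TMM scaling, filterByExpr with a minimum count of 10, quasi-likelihood test without a block, Benjamini-Hochberg adjustment over all 14761 tested genes). The call required an adjusted p under 0.05 with more than a 2-fold change, the thresholds of the study. Standard errors were derived from the fold change and the F statistic. Each library's total, 10292480 to 13787189 counts, sets its floor of 3 counts, which covers counting error only. Replicates differed by more than sampling noise (chi-square per degree of freedom 14.7 to 29.0), so none was taken for a library deposited again, which does not show that they came from separate animals. The script was tested on simulated data. Segment sums were compared on log2(CPM + 0.5) by exact permutation of the libraries. The exons came from a GENCODE annotation of GRCm38. Alternatives were DESeq2 1.42.0, RLE and upper-quartile factors, other filters, a pseudocount of 2, blocks by replicate number and by library name form, and each library left out in turn.

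The genes, lists and rules were chosen with earlier results of these data known. Named are the 10 genes, the called genes of the pathway and marker lists and the 3 most expressed of each (some of them are not reported here), Cd36, Klrb1c, Ncr1, the 3 segments of highest count in each group and the 5 genes nearest to the CD3 profile, and others are said to be named after their values were seen.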

Additional observations from a re-analysis of the deposited data

How the results depend on the processing

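With 880 genes called over all tested genes, the replicate block gave 560 and leaving out 1 library 417 to 1160. Of the 10 genes 3 were called, 1 without a filter on low counts, 0 with the replicate block and 0 to 7 with 1 library left out. The 7 include Cd3e, whose counts in CD36+ NK 2 and 3 were below the floor. Of the pathway genes 11 were called, and 5 to 21 with 1 library left out. Of 128 alternative values of the 10 genes, 92 kept direction and side of the threshold, 17 lost the call, 4 gained one and 12 changed sign, 3 of these among the 4, and for 6 DESeq2 gave no adjusted p. With 1 library left out the log2 fold change ran from -1.56 to 2.78 for Trac, -2.21 to 0.078 for Trbc2, -2.36 to 1.43 for Cd3d, -2.76 to 3.98 for Cd3e, -1.51 to 1.59 for Cd3g, -0.050 to 5.24 for Cd8b1 and -0.019 to 3.36 for Cd5. Each lowest value was the one without CD36+ NK 1, and that of Trbc2 without CD36+ NK 2 was 0.0041. Cd3d was at -0.62 with the replicate block and -0.57 with the library name form as block, and Cd3g at -0.042 and -0.020. The segment sum (-1.43) lay between -2.42 and -0.80 with 1 library left out, and was 0.61 for alpha and beta V segments only, which leaves out the classes that differed by group. Apart from these choices of libraries and segments, the cause was not tested.

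The replicate numbers of the titles gave no clear pairing of the samples. Same-numbered deviations correlated at 0.336, 0.0664 and -0.0829, and 1 of 3 CD36+ NK libraries correlated best with its own number. From so few libraries this check cannot show that pairing was absent. The library numbers, which differ from the titles in CD36- NK, were not used for pairing. The name form block sets CD36+ NK 1, the library that stands apart, and CD36- NK 1 against the other 4. With the replicate block 8 pathway genes were called. With the permutation within numbers the segment sum had an exact permutation p of 0.5. With 3 libraries in each group, the exact permutation test of segment sums cannot pass 0.05, and genes at a few counts, such as Cd3e and Cd8b1 outside CD36+ NK 1, are limited by depth.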
